A study of Mus musculus with 8 samples.

Results

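The cytosolic chaperones and heat shock genes described here are 39 genes chosen by name: 6 of the Hsp70 and Hsp110 class, 2 of Hsp90, 6 J-domain proteins (Hsp40), 4 small or mitochondrial heat shock proteins, 12 co-chaperones, 2 heat shock factors and 7 chaperonin subunits. They were chosen with earlier results of these data known, so no test was run over the list as a whole. All 39 were found among the 17738 gene symbols of the expression table, and each was represented by its transcript of the highest mean. Whole spleens of 4 wild-type and 4 TTPΔARE mice were sequenced for RNA; all 8 were male, on the C57BL/6 background, 8 to 12 weeks old and without a labelled treatment. TTP, tristetraprolin, is encoded by Zfp36 and promotes the decay of mRNAs with AU-rich elements, and the TTPΔARE allele removes such an element from the Zfp36 mRNA itself in every cell that carries it. The sources used here do not state zygosity, litter or housing, and each spleen is a separate library of one mouse, as far as the labels tell. The comparison asked how spleen mRNA levels differed between the genotypes. Levels are given in FPKM, the number of sequenced fragments scaled by transcript length and library depth.

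Chaperones bind unfolded or partly folded proteins and help them to fold, assemble or be degraded. Hsp70 works in cycles of ATP binding and hydrolysis that J-domain proteins start and nucleotide exchange factors end, and it passes some clients on to Hsp90, which a set of co-chaperones guides. When unfolded proteins accumulate, for example in heat, the transcription factor HSF1 binds heat shock elements, inverted repeats of the letters GAA and TTC, and raises the transcription of many of these genes. The chaperonin TRiC, built of Cct subunits, folds actin and tubulin and is largely constitutive. Most of these genes are active in every cell type of the spleen, and in red cell precursors Hsp70 is known to protect the transcription factor GATA1.

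Of the 39 chaperone genes 10 rose in TTPΔARE spleens and 0 fell by limma over all transcripts (adjusted p under 0.05), against 2.01% of all 16608 tested transcripts that rose and 1.99% that fell. The 10 were Hspa8, Hspa4l, Hsph1, Dnaja4, Hspb1, Chordc1, Fkbp4, Ahsa2, St13 and Cacybp, with 1.21-fold to 1.82-fold changes. The log2 change was above 0 for 38 of the 39, against 51% of all tested transcripts, and only Cdc37 was below 0 (-0.01). The median change was 0.22 on the log2 scale, against 0.003 over all tested transcripts, and 24 of the 39 had an unadjusted p under 0.05, against 21.1% of all. In 13 of the 39 the lowest TTPΔARE spleen was above the highest wild-type spleen, against 6.53% of all tested transcripts, and the reverse, found for 5.99% of all, did not occur. Because the 39 genes were chosen with earlier results known, these counts describe the list and do not test it. The rises were spread over Hsp70, Hsp40, Hspb1 and the co-chaperones, while none of the Hsp90, heat shock factor or chaperonin genes passed.

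**Figure D1:**
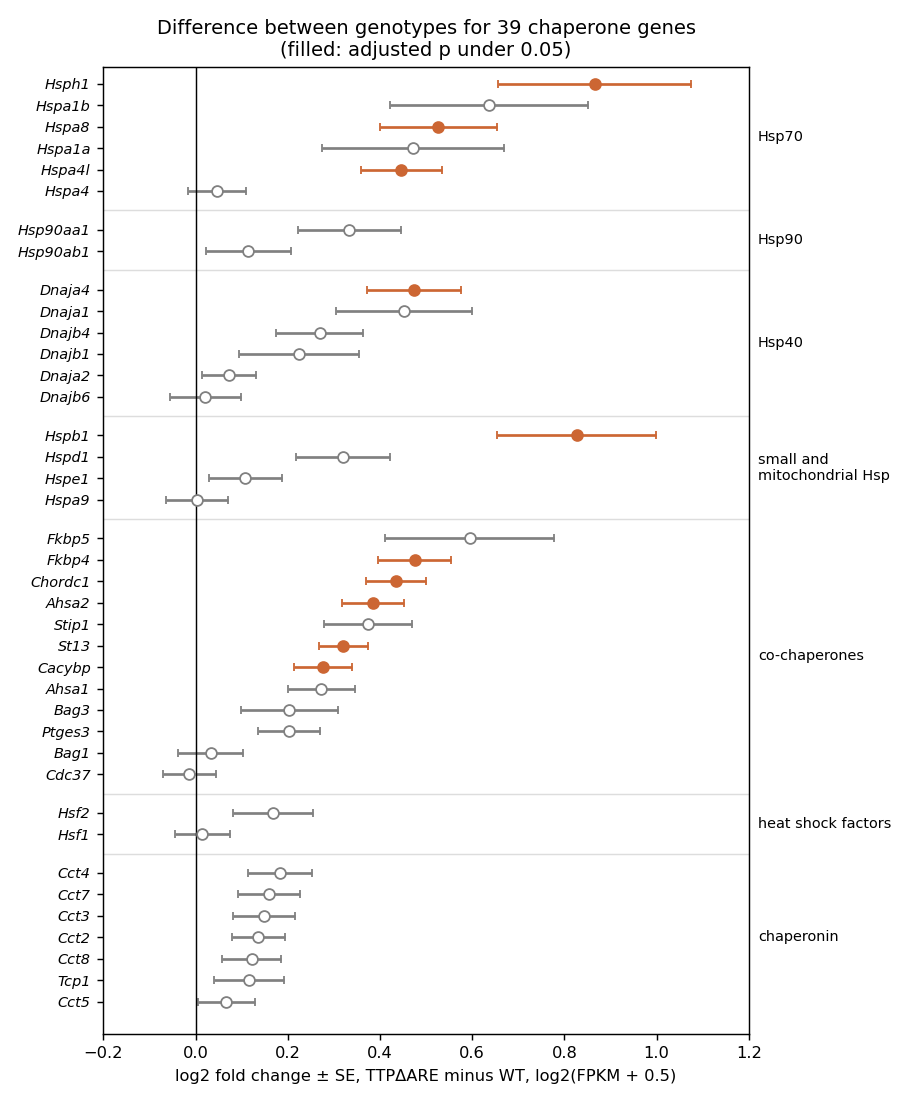
Log2 fold change between genotypes (TTPΔARE minus wild-type, on the log2(FPKM + 0.5) scale) for each of the 39 chaperone genes, by class, with its standard error (n = 4 spleens each). Filled points are the 10 genes that passed, from Cacybp at 0.28 to Hsph1 at 0.87, and open points did not pass.

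B cell markers summed to 878.7 to 1075.6 FPKM over the 8 libraries, and no marker of any of the 11 cell type lists stood at 0. No other tissue was compared, so these values do not test the spleen label. The depth estimated from the steps between low values was 28.3 to 32.2 M fragments per library. Zfp36, the altered gene, was at 36.4 to 44.9 FPKM in wild-type and 46.1 to 57.5 FPKM in TTPΔARE spleens (log2 0.39, limma adjusted p = 0.0323, not passed without any one of 5 of the 8 spleens), and a level per transcript does not show whether the element is missing. Erythroid markers moved with the genotype: 25 of 25 had a positive log2 value, and they summed to 4206.3 to 7753.5 FPKM in wild-type and 9868.7 to 15636.7 FPKM in TTPΔARE spleens. Sums of the dendritic cell markers (54.3 to 63.8 and 65.8 to 74.1 FPKM) and endothelial markers (93.0 to 109.4 and 110.5 to 114.9 FPKM) were also higher without overlap. Of the megakaryocyte and platelet markers 7 of 7 had a positive log2 value and 2 rose, with a median of 0.52 and overlapping sums (44.6 to 86.5 and 62.0 to 102.5 FPKM). Sums of the B cell markers (1003.4 to 1075.6 and 878.7 to 945.5 FPKM) and stromal markers (195.0 to 223.9 and 128.9 to 175.3 FPKM) were lower. Singly, 9 of 10 B cell markers had a negative log2 value and 2 fell, while Cr2 was at 0.31. Of the 8 stromal markers 5 were below 0 and 3 above, and 3 fell. In whole spleen, a different share of a cell type and a different RNA level per cell cannot be told apart.

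The promoters of 5 of the 32 chaperone genes with an entry in the RefSeq table (GRCm38.p6) held a full heat shock element, searched on both strands as 3 alternating units of GAA and its reverse complement TTC with any 2 bases between units, from 250 bases before to 50 after each start. Counted per gene in the same way, with a match in any of its windows, the pattern was found in 0.662% of 27025 genes, and counted per window in 0.603% of 32851 windows. Of the 5 genes, Hspd1 and Hspe1 share 1 site. They are shown because they carry the letters that HSF1 recognises, with the match in capitals, 5′ to 3′ along the gene:
Chordc1: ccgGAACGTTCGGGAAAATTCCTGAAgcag
Hsph1: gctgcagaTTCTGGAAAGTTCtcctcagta
Hspd1: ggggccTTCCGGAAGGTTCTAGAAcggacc
Hspe1: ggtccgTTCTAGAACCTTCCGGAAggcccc
Dnajb6: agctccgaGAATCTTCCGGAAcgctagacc
Chordc1 (chr9:18292260-18292289, plus strand) carried 3 overlapping matches across its start, from base -4 to base 19. In Hsph1 (chr5:149636279-149636308, minus strand) the match lay after the start, at bases 16 to 28 from the start further downstream. Hspd1 and Hspe1 are neighbours transcribed in opposite directions, and both lines show the same 30 bases, chr1:55088053-55088082, read on the minus and on the plus strand. The match of Dnajb6 was at chr5:29735844-29735873 on the plus strand. Chordc1 and Hsph1 rose, while Hspd1, Hspe1 and Dnajb6 did not pass.

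A shorter motif of 2 such units in either order, which also lies within each full element, was found in 16 of the 32 chaperone genes, in 17.0% of all genes and in 15.1% of all windows. It was present in 5 of the 8 genes with an entry that rose and in 11 of the 24 that did not pass. The 2 inducible Hsp70 genes shared the 30 promoter bases below, in which the shorter motif, in capitals, lies at base -104 to base -97 of each gene:
Hspa1a: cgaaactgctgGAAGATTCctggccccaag
Hspa1b: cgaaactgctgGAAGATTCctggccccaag
These lie at chr17:34972242-34972271 and chr17:34959324-34959353 on the minus strand. Hspa8, St13, Hsp90aa1, Hsp90ab1, Hspa9, Hsf1 and Cct4 had no entry. Only exact units at this spacing were searched, so a gene without a match is not shown to lack a heat shock element. A match is a description of letters and not of binding.

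Within the Hsp70 class, the constitutive Hsp70 gene Hspa8 rose, as did Hsph1 and Hspa4l, 2 of the 3 Hsp110-type nucleotide exchange factors. Hspa8 (chr9:40801276-40805202) stood at 274.8, 417.4, 348.1 and 370.8 FPKM in wild-type replicates 1 to 4 and at 489.5, 438.2, 589.3 and 505.6 FPKM in TTPΔARE replicates 1 to 4. The groups did not overlap, with wild-type replicate 1 the lowest and TTPΔARE replicate 3 the highest spleen. The group means were 352.8 ± 59.4 and 505.7 ± 62.7 FPKM (SD, n = 4 each), and the rise was 1.44-fold (log2 0.53 with an SE of 0.128, adjusted p = 0.0455 by limma). It was the most abundant of the 39 genes and its share of their summed FPKM was 22.8% in wild-type and 27.0% in TTPΔARE spleens.

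Hsph1 (chr5:149616843-149636498), which also prevents aggregation of denatured proteins, had the largest change of the 39 genes on the log2(FPKM + 0.5) scale. Its ratio of mean FPKM, 1.83, was below that of Hspb1, 1.98. Wild-type spleens had 7.06, 15.4, 10.5 and 11.8 FPKM and TTPΔARE spleens 18.4, 16.7, 28.4 and 18.6 FPKM, so that wild-type replicate 2 came close to TTPΔARE replicate 2 without overlap. The mean rose from 11.2 ± 3.44 to 20.5 ± 5.32 FPKM (SD, n = 4 each; 1.82-fold on the log2(FPKM + 0.5) scale, log2 0.87 with an SE of 0.209, adjusted p = 0.0453 by limma). The related Hspa4l (chr3:40744500-40796103) had 3.11, 3.48, 4.05 and 3.71 FPKM in wild-type and 4.48, 4.83, 5.61 and 5.35 FPKM in TTPΔARE spleens, again without overlap. It rose 1.36-fold (log2 0.45 with an SE of 0.0881, adjusted p = 0.0205 by limma). Hspa4, the other Hsp110-type gene, stood at 25.1 ± 1.74 and 25.9 ± 1.197 FPKM without passing (log2 0.05).

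The Hsp70 calls lay close to the threshold. With 1 spleen left out, the log2 value stayed between 0.41 and 0.61 for Hspa8, between 0.67 and 1.03 for Hsph1 and between 0.39 and 0.50 for Hspa4l, lowest without wild-type replicate 1 in all 3 genes. With replicate 1, 3 or 4 of the wild-type group or replicate 1, 3 or 4 of the TTPΔARE group removed, the limma adjusted p of Hspa8 was 0.0653, 0.0737, 0.0934, 0.0811, 0.144 and 0.111, and that of Hsph1 was 0.0755, 0.0722, 0.0936, 0.0727, 0.128 and 0.0955. Hspa4l did not pass once the fourth wild-type spleen (0.0522) or the third or the fourth TTPΔARE spleen (0.0734 and 0.0670) was removed. Hspa8 and Hsph1 also did not pass without a filter on low values (0.0811 and 0.0705), without the variance trend (0.0521 and 0.0575) or with 1 transcript per symbol (0.0505 for each). Median-of-ratios scaling ended the call of Hspa8 (0.0533) and a robust variance that of Hsph1 (0.117).

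The strongly heat-inducible Hsp70 genes Hspa1a and Hspa1b were expressed at low levels in all spleens. Hspa1a had 0.391, 0.969, 0.989 and 0.655 FPKM in wild-type and 1.17, 0.752, 1.81 and 1.23 FPKM in TTPΔARE spleens, and Hspa1b had 0.540, 1.41, 1.47 and 0.929 and 1.89, 1.26, 2.73 and 1.90 FPKM. In both, wild-type replicate 1 was lowest, TTPΔARE replicate 3 was highest, and the groups overlapped through wild-type replicates 2 and 3 and TTPΔARE replicate 2. Neither passed, with log2 values of 0.47 and 0.64 and limma adjusted p of 0.199 and 0.123. The split of reads between them is uncertain, since 58.8% of the 50-base runs of the Hspa1a transcript also occur in that of Hspa1b. Their summed level was 1.84 ± 0.722 FPKM in wild-type and 3.19 ± 1.03 FPKM in TTPΔARE spleens (SD, n = 4 each). By the estimated depth, the lowest Hspa1a value stands for about 32.9 fragments.

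**Figure D2:**
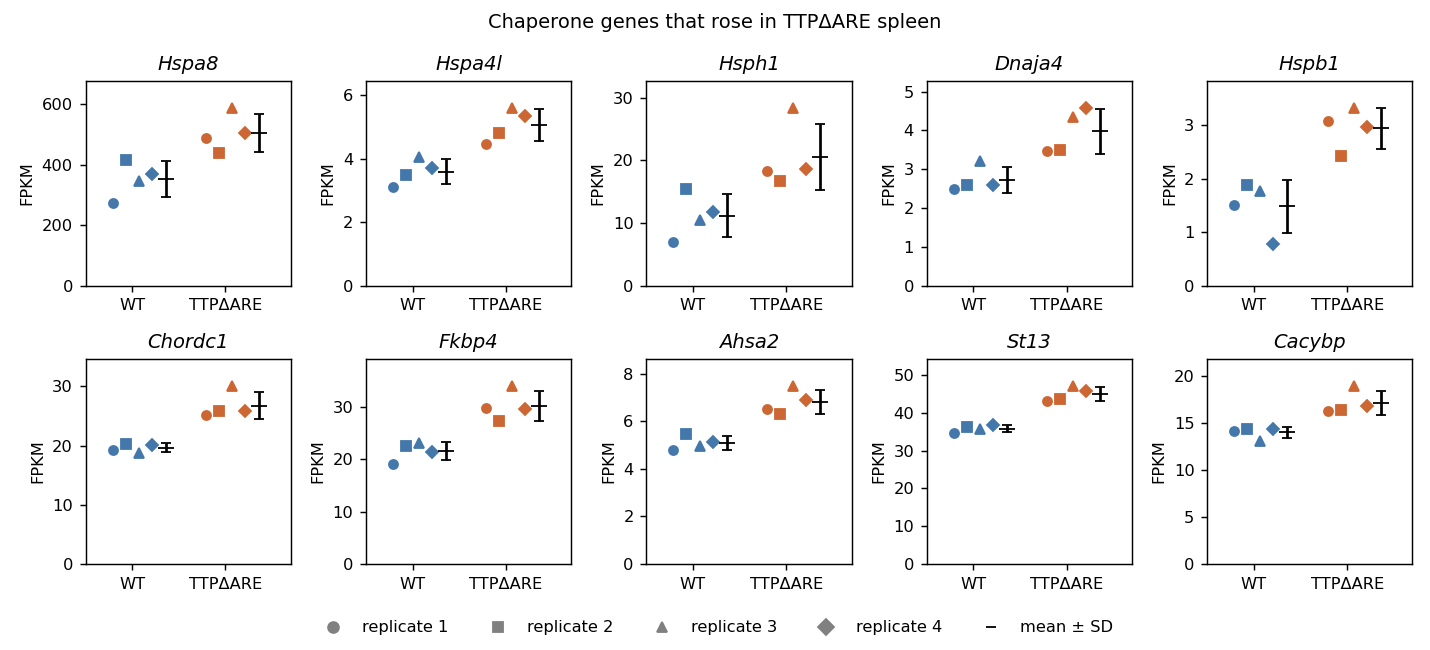
FPKM of the 10 chaperone genes that rose, per spleen (4 wild-type, 4 TTPΔARE, one symbol per replicate number, which pairs no samples) with the mean ± SD of each group. In every panel the TTPΔARE points lie above the wild-type points, and the ranges of mean ± SD of the 2 groups do not meet in any of the 10.

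The Hsp90 genes, whose products hold kinases and steroid receptors in an activatable state, did not pass. The inducible Hsp90aa1 stood at 78.3, 77.8, 96.2 and 89.7 FPKM in wild-type and 98.0, 94.1, 134.2 and 107.7 FPKM in TTPΔARE spleens, overlapping only where wild-type replicate 3 exceeded TTPΔARE replicate 2 (log2 0.33, limma adjusted p = 0.120). The constitutive Hsp90ab1 had 274.0, 310.4, 329.4 and 333.1 FPKM and 346.3, 297.3, 379.5 and 328.2 FPKM (log2 0.11, adjusted p = 0.524 by limma). Its groups overlapped widely, and it was the second most abundant of the genes, with 20.2% of their summed FPKM in wild-type and 18.1% in TTPΔARE spleens.

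Among the J-domain proteins, which deliver clients to Hsp70 and start its ATP hydrolysis, Dnaja4 rose and 5 did not pass. Dnaja4 (chr9:54698848-54716317) had 2.48, 2.59, 3.21 and 2.60 FPKM in wild-type and 3.48, 3.499, 4.35 and 4.58 FPKM in TTPΔARE spleens. The groups did not overlap, and wild-type replicate 3 stood above the other wild-type spleens. The rise was 1.39-fold on the log2(FPKM + 0.5) scale (log2 0.47 with an SE of 0.101, adjusted p = 0.0289 by limma) and 1.46-fold as a ratio of mean FPKM. Dnaja4 no longer passed when wild-type replicate 1, 2 or 4 was removed (0.0666, 0.0621 and 0.0838), or when TTPΔARE replicate 3 or 4 was (0.102 and 0.0843).

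Dnaja2, the most abundant of these 6 J-domain genes, had 29.0, 26.0, 25.8 and 27.9 FPKM in wild-type and 27.4, 27.8, 30.01 and 29.1 FPKM in TTPΔARE spleens, with overlapping groups (log2 0.07). Dnaja1 stood at 9.23 ± 2.25 and 12.7 ± 1.98 FPKM (SD, n = 4 each; log2 0.45, limma adjusted p = 0.115), and its 2 other transcripts gave log2 values of 0.52 and 0.44. Without wild-type replicate 2, which had 12.3 FPKM, Dnaja1 passed (log2 0.59, limma adjusted p = 0.0262). Dnajb1, the classic stress-inducible Hsp40, had 12.9 ± 2.34 and 15.2 ± 2.34 FPKM (log2 0.22), Dnajb4 had a log2 value of 0.27, and Dnajb6, which suppresses protein aggregation, one of 0.02.

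Of the small and mitochondrial heat shock proteins, Hspb1 rose and the 3 mitochondrial chaperones did not pass. Hspb1 (chr5:135887919-135889563), a small heat shock protein that holds unfolded proteins without ATP, had 1.51, 1.89, 1.76 and 0.783 FPKM in wild-type and 3.07, 2.42, 3.32 and 2.96 FPKM in TTPΔARE spleens. Every TTPΔARE spleen was above every wild-type spleen, and wild-type replicate 4 was the lowest. The mean rose from 1.48 ± 0.493 to 2.94 ± 0.381 FPKM (SD, n = 4 each; 1.77-fold on the log2(FPKM + 0.5) scale, log2 0.83 with an SE of 0.172, adjusted p = 0.0253 by limma). By the estimated depth its lowest value rests on about 22.8 fragments. Removing wild-type replicate 1 ended the call (0.0525), as did removing TTPΔARE replicate 1, 3 or 4 (0.0578, 0.0887 and 0.0681).

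Hspd1 and Hspe1 encode Hsp60 and its lid Hsp10, the mitochondrial folding chamber, and share the promoter shown above. Hspd1 had 39.3, 40.9, 48.3 and 47.3 FPKM in wild-type and 53.2, 47.2, 66.0 and 54.4 FPKM in TTPΔARE spleens, with TTPΔARE replicate 2 inside the wild-type range (log2 0.32, limma adjusted p = 0.106). Hspe1 stood at 38.6 ± 2.83 and 41.7 ± 4.18 FPKM (SD, n = 4 each; log2 0.11). Hspa9, the mitochondrial Hsp70, was at 38.98 ± 2.78 and 39.04 ± 2.49 FPKM (log2 0.003).

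Of the 12 co-chaperone genes 5 rose: Chordc1, Fkbp4, Ahsa2, St13 and Cacybp. Chordc1 (chr9:18292267-18314000), a zinc-binding Hsp90 partner, had the smallest p of the 39 genes, with 19.3, 20.3, 18.7 and 20.1 FPKM in wild-type and 25.2, 25.8, 30.1 and 25.9 FPKM in TTPΔARE spleens. The wild-type spleens lay close together and well below all TTPΔARE spleens. It rose 1.35-fold (log2 0.44 with an SE of 0.0653, adjusted p = 0.00776 by limma). Fkbp4 (chr6:128430103-128438656), an immunophilin of steroid receptor complexes, had 19.1, 22.6, 23.1 and 21.3 FPKM and 29.7, 27.3, 34.0 and 29.6 FPKM. Its groups were apart, and it rose 1.39-fold (log2 0.48 with an SE of 0.0789, adjusted p = 0.0107 by limma).

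St13 (chr15:81365044-81399694) encodes Hip, which steadies the ADP-bound form of Hsp70, and was the most abundant of these 12 co-chaperone genes. It had 34.6, 36.2, 35.8 and 36.7 FPKM in wild-type and 43.0, 43.7, 47.1 and 45.7 FPKM in TTPΔARE spleens, with the smallest spread relative to the mean among the genes that rose. The change was 1.25-fold (log2 0.32 with an SE of 0.0524, adjusted p = 0.0101 by limma). Ahsa2 (chr11:23487882-23498045), a relative of the Hsp90 ATPase activator Ahsa1, went from 4.81, 5.47, 4.96 and 5.12 FPKM to 6.51, 6.32, 7.49 and 6.90 FPKM. Its groups did not overlap (log2 0.39 with an SE of 0.0676, adjusted p = 0.0130 by limma). Chordc1, Fkbp4, St13 and Ahsa2 kept their calls whichever of the 8 spleens was removed, with limma adjusted p of at most 0.0258, 0.0380, 0.0458 and 0.0492.

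Cacybp (chr1:160202367-160212892), which links Hsp90 and calcyclin to ubiquitin ligases, had 14.2, 14.4, 13.1 and 14.4 FPKM in wild-type and 16.3, 16.4, 19.0 and 16.9 FPKM in TTPΔARE spleens. It rose 1.21-fold (log2 0.28 with an SE of 0.0629, adjusted p = 0.0371 by limma). That call held only without TTPΔARE replicate 2 and was lost without any of the other 7 spleens in turn: without wild-type replicates 1 to 4 (0.0563, 0.0611, 0.0715 and 0.0743) and without TTPΔARE replicates 1, 3 and 4 (0.0503, 0.113 and 0.0924). It was also lost with median-of-ratios scaling (0.0510) and without the variance trend (0.0536).

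In 3 more co-chaperone genes the groups did not overlap and the test was not passed. Stip1, the adaptor Hop that joins Hsp70 to Hsp90, had 26.3, 32.2, 29.3 and 29.9 FPKM in wild-type and 35.8, 34.6, 46.7 and 36.8 FPKM in TTPΔARE spleens (log2 0.37, limma adjusted p = 0.0544). It passed with quantile normalization (0.0436), a robust variance (0.0464) and sample weights (0.0493), and without TTPΔARE replicate 2 (0.0485). The Hsp90 activator Ahsa1 stood at 28.0 ± 1.96 and 34.0 ± 2.85 FPKM (SD, n = 4 each; log2 0.27, limma adjusted p = 0.0624) and passed with quantile normalization (0.0483), sample weights (0.0443) and without TTPΔARE replicate 2 (0.0383).

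The third was Fkbp5, an immunophilin induced by glucocorticoids, with 9.15, 10.2, 8.99 and 10.01 FPKM in wild-type and 10.4, 12.4, 15.8 and 22.8 FPKM in TTPΔARE spleens. The TTPΔARE values were spread widely and TTPΔARE replicate 4 was highest (log2 0.59, limma adjusted p = 0.0968). Without TTPΔARE replicate 1 it passed (log2 0.75, adjusted p = 0.0398 by limma). By limma 0 of the 8 listed glucocorticoid response genes, Fkbp5 included, passed, and 3 had an unadjusted p under 0.05, against 21.1% of all tested transcripts. Of the 8 log2 values 6 were above 0 and 2 below, with a median of 0.30. Klf9 had the smallest p of the 8 (log2 0.50, limma adjusted p = 0.0590). The summed level of that list overlapped between genotypes (75.0 to 124.4 and 71.3 to 181.0 FPKM), with TTPΔARE replicate 3 highest.

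The other 4 co-chaperone genes had log2 values between -0.01 and 0.20. Ptges3, the Hsp90 cofactor p23, had 26.4 ± 0.925 and 30.6 ± 2.72 FPKM (SD, n = 4 each) and passed only without TTPΔARE replicate 2 (limma adjusted p = 0.0497, against 0.120 with all spleens). Bag3 and Bag1, nucleotide exchange factors of Hsp70, had log2 values of 0.20 and 0.03. The kinase-specific Hsp90 partner Cdc37 stood at 28.7 ± 1.49 and 28.4 ± 1.31 FPKM.

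The heat shock factors did not pass. Hsf1, the main stress-activated transcription factor, had 14.8, 16.9, 15.9 and 16.2 FPKM in wild-type and 17.2, 16.1, 15.6 and 15.5 FPKM in TTPΔARE spleens (log2 0.01, limma adjusted p = 0.925), and its groups overlapped throughout. Hsf2 had 2.48, 2.20, 1.78 and 2.24 FPKM and 2.44, 2.54, 2.67 and 2.33 FPKM (log2 0.17, limma adjusted p = 0.294). HSF1 is controlled largely at the protein level, which these libraries do not measure.

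Chaperonin genes had small positive values and by limma 0 of 7 passed. An unadjusted p under 0.05 was found for 4 of the 7, against 21.1% of all tested transcripts. The most abundant of the 7, Cct5, had 71.2, 64.0, 65.7 and 66.2 FPKM in wild-type and 65.7, 67.8, 71.5 and 75.0 FPKM in TTPΔARE spleens (log2 0.07). The one with the smallest p, Cct4, had 40.4, 38.9, 37.7 and 40.5 FPKM and 42.9, 40.1, 48.4 and 48.1 FPKM (log2 0.18, limma adjusted p = 0.156). TTPΔARE replicate 2 lay within the wild-type range in both. Tcp1, Cct2, Cct3, Cct7 and Cct8 had log2 values from 0.12 to 0.16. The 7 genes summed to 314.2 ± 8.70 FPKM in wild-type and 344.2 ± 22.6 FPKM in TTPΔARE spleens (SD, n = 4 each), against 394.5 ± 64.4 and 560.4 ± 70.3 FPKM for the Hsp70 class and 230.2 ± 7.84 and 285.2 ± 23.1 FPKM for the co-chaperones.

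**Figure D3:**
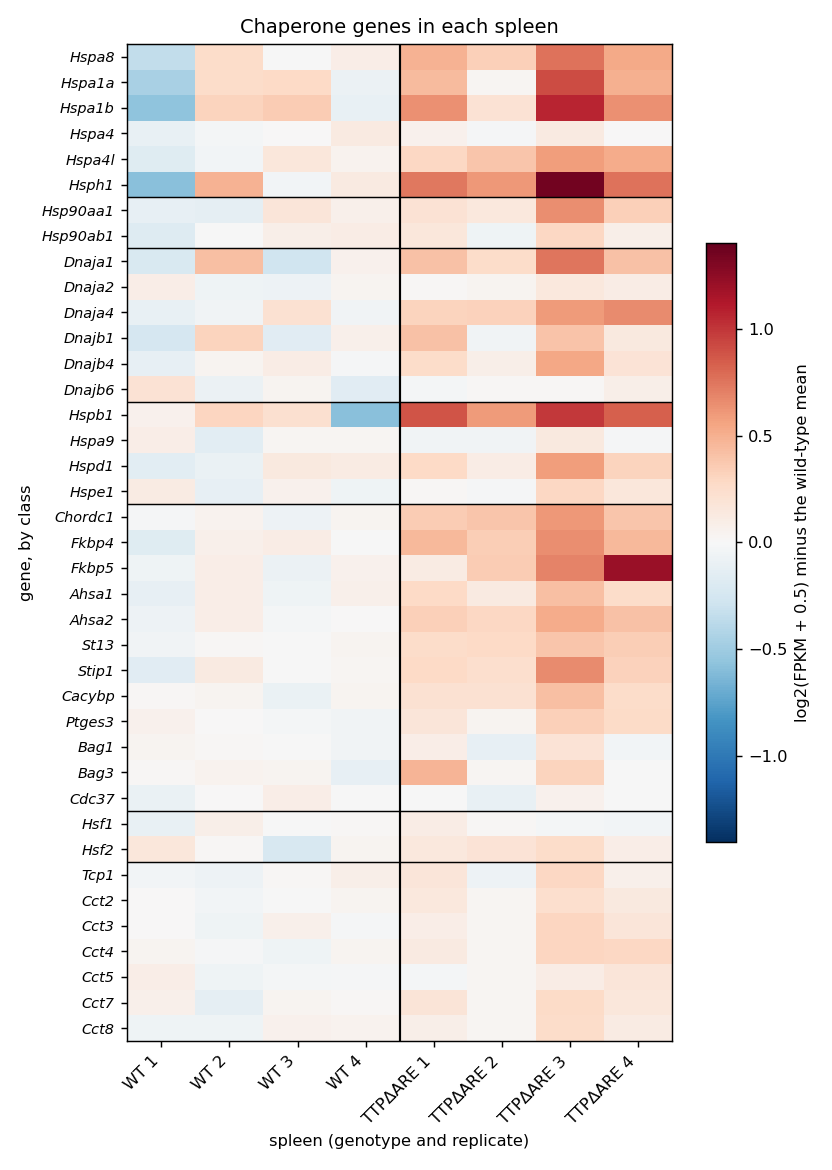
Level of each of the 39 chaperone genes in each spleen, as log2(FPKM + 0.5) minus the wild-type mean of that gene (red above, blue below), with classes separated by lines and genotypes by the vertical line. TTPΔARE replicate 3 is the highest of the 8 spleens for 31 of the 39 genes, and wild-type replicate 1 the lowest for 17.

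TTPΔARE replicate 3 stood apart from the other spleens in these genes. It was the highest of the 8 spleens for 31 of the 39 genes, against 12.5% of all tested transcripts. Wild-type replicate 1 was the lowest for 17, against 18.1% of all, and TTPΔARE replicates 1, 3 and 4 were the lowest for 0. Among wild-type spleens, Hspa8, Hsph1, Dnaja1 and Dnajb1 were highest in replicate 2, while Hspa4l, Hsp90aa1, Dnaja4 and Hspd1 were highest in replicate 3. Without TTPΔARE replicate 3, 4 of the 39 rose (Chordc1, Fkbp4, Ahsa2 and St13), the median log2 value was 0.17 and 36 of 39 values were above 0. Calls also became fewer over the whole table, where 93 of 16598 transcripts then rose, against 333 of 16608 with all 8 spleens. The same 4 genes rose without TTPΔARE replicate 4, when 117 of 16608 transcripts did. Without wild-type replicate 1 or wild-type replicate 4 there were 5, and without wild-type replicate 2, wild-type replicate 3, TTPΔARE replicate 1 and TTPΔARE replicate 2 there were 9, 7, 7 and 13. Over all tested transcripts, in the same order, 237, 114, 227, 437, 240 and 319 rose. No gene of the 39 fell in any of these fits.

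**Figure D4:**
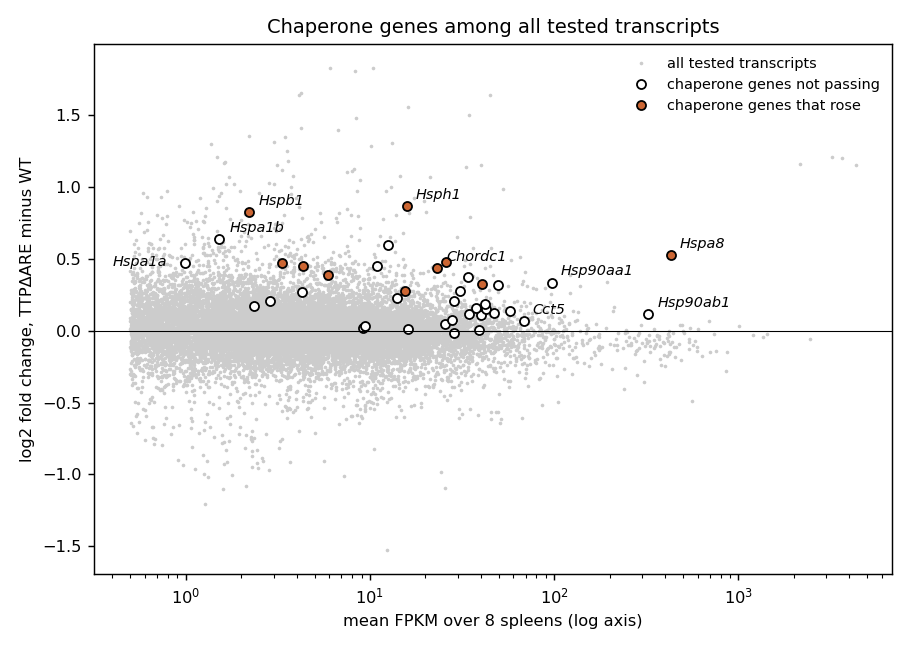
Log2 fold change (TTPΔARE minus wild-type) against the mean FPKM over 8 spleens (log axis) for all 16608 tested transcripts (grey) and the 39 chaperone genes (circles, filled where they rose). All chaperone genes but Cdc37 (-0.01) lie above 0, with a median of 0.22 against 0.003 for all transcripts.

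The erythroid markers, which were higher in the same spleens, were also used as a covariate. With their mean log2 level in the limma fit, 0 of the 39 genes and 0 of the 16608 transcripts passed in either direction, while 8 of the 39 and 1405 of all transcripts had an unadjusted p under 0.05. The genes differed in how far their values moved. Chordc1 went from 0.44 to 0.43, Hspb1 from 0.83 to 0.79, Hsph1 from 0.87 to 0.68, Hspa8 from 0.53 to 0.38 and St13 from 0.32 to 0.27, while Dnaja1 stood at 0.45 and 0.55. By contrast, Hspa4l went from 0.45 to 0.22, Dnaja4 from 0.47 to 0.19, Hsp90aa1 from 0.33 to 0.02 and Hspd1 from 0.32 to 0.03. The median over the 39 genes was 0.11 with the covariate, and 31 of 39 values were above 0. The marker sums did not overlap between genotypes, but the covariate weighs each marker alike, and only 5 of the 25 markers were apart singly. Slc4a1, for example, had 44.8 FPKM in wild-type replicate 3 and 29.2 FPKM in TTPΔARE replicate 2. With 25 of 25 log2 values positive, erythroid marker level and genotype went together in the group means, though not in every spleen. What each contributed to the chaperone values was not tested.

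No test was passed among the further genes of the chaperone system in the cytosol and mitochondria. Of 69 further cytosolic and mitochondrial chaperone and co-chaperone genes (among them prefoldins, other J-domain proteins and the ubiquitin ligase Stub1), 68 were in the table and 61 were tested. By limma 0 rose and 0 fell, and 9 of the 61 had an unadjusted p under 0.05, against 21.1% of all tested transcripts. The median log2 value of these genes was -0.02, and 35 of the 61 were below 0. The J-domain protein and histone chaperone Dnajc9 had the smallest p, with 28.6 ± 1.35 and 24.7 ± 0.527 FPKM (SD, n = 4 each; log2 -0.21, limma adjusted p = 0.0526). Of 17 endoplasmic reticulum chaperones 2 rose, against 2.01% of all tested transcripts, and 15 had a positive log2 value, against 51% of all. In 4 of the 17 every TTPΔARE spleen was above every wild-type spleen, against 6.53% of all, and the median log2 value was 0.07. Hspa5 and Hsp90b1, the Hsp70 and Hsp90 of that compartment, had log2 values of 0.04 each. One of the 2 was Serpinh1, the collagen chaperone Hsp47, from 5.61 ± 0.416 to 7.23 ± 0.821 FPKM (log2 0.34, limma adjusted p = 0.0490), a call that ended when any one of 7 spleens was removed (0.0538 to 0.144) and in 7 of 12 processing alternatives. The other was Pdia4, a disulfide isomerase (log2 0.40, limma adjusted p = 0.0121).

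Of the cold-inducible genes, Cirbp fell in TTPΔARE spleens and Rbm3 did not pass. Cirbp and Rbm3 encode RNA-binding proteins whose mRNAs increase when cells are cooled and decrease when they are warmed. Cirbp had 48.3, 33.6, 39.7 and 31.1 FPKM in wild-type and 25.6, 29.5, 22.3 and 23.0 FPKM in TTPΔARE spleens. Every TTPΔARE spleen was below every wild-type spleen, with wild-type replicate 1 highest and TTPΔARE replicate 3 lowest, the reverse of Hspa8 and Hsph1. Cirbp fell by 0.58 on the log2 scale (SE 0.130, limma adjusted p = 0.0344). It did not pass when wild-type replicate 1 or 3 was removed (0.0522 and 0.0608), without TTPΔARE replicate 1, 3 or 4 (0.0634, 0.114 and 0.101) and without a filter on low values (0.0535).

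Rbm3 had 75.4, 45.9, 45.5 and 52.3 FPKM in wild-type and 39.1, 41.5, 32.8 and 32.0 FPKM in TTPΔARE spleens, also without overlap, and did not pass (log2 -0.56, limma adjusted p = 0.0607). It passed without wild-type replicate 3 (0.0476), with sample weights (0.0414) and with FPKM summed per symbol (0.0483). Of the 13 cold-inducible and clock genes tested, Cirbp alone passed, and 3 had an unadjusted p under 0.05, against 21.1% of all tested transcripts. Of the clock genes, Per1, Dbp, Nr1d1 and Arntl had log2 values of 0.12, -0.04, 0.04 and 0.10. The sources used here do not state the time of day at dissection.

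**Figure D5:**
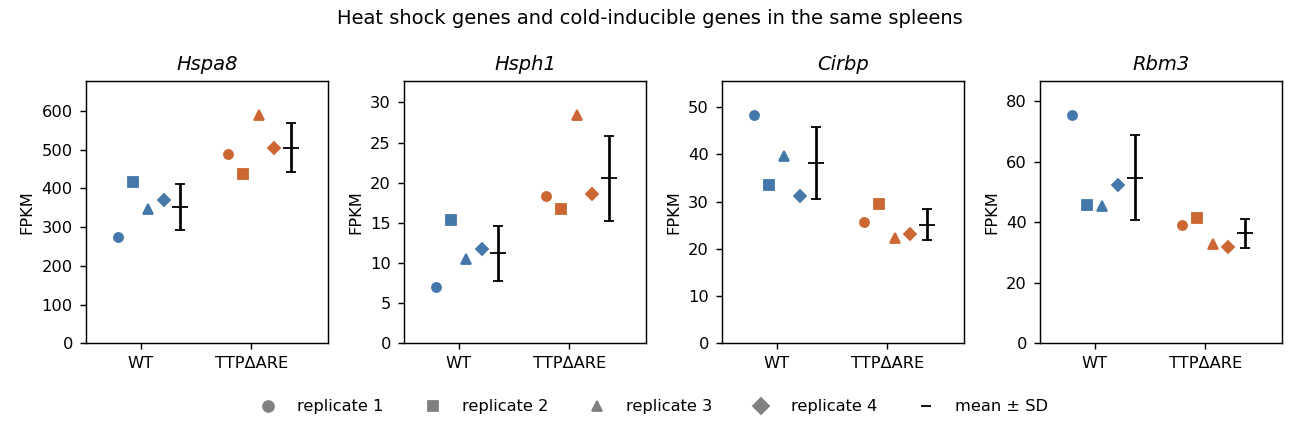
FPKM of the heat shock genes Hspa8 and Hsph1 and of the cold-inducible genes Cirbp and Rbm3 per spleen (4 wild-type, 4 TTPΔARE, one symbol per replicate number) with the mean ± SD of each group. Wild-type replicate 1 is lowest for Hspa8 and Hsph1 and highest for Cirbp and Rbm3, and TTPΔARE replicate 3 is highest for Hspa8 and Hsph1 and lowest for Cirbp.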

How the data were processed

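The authors deposited 1 table of FPKM per RefSeq transcript and spleen, which was used as it stands. The submitters' processing notes name BWA and the build mm10. How fragments were counted, with which annotation and strand setting, and what was done with reads that match several places is something the sources used here do not give, so levels of genes with near-identical copies are uncertain. Spleens were grouped by genotype, and the labels name neither batches nor pairs. P-values set the difference between genotypes against the spread between spleens of the same genotype, for these 8 spleens only.

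The table has 23517 transcripts. Those with a mean of at least 0.5 FPKM, 16608 in all and every one of the 39 genes, were log-transformed as log2(FPKM + 0.5) and compared by limma 3.58.1 (R 4.3.3; variance trend, two-sided). P-values were adjusted over all tested transcripts (Benjamini-Hochberg), with a threshold of 0.05. Fold changes are on that scale and understate those of low genes. Exact permutation over the 70 assignments can give at best p = 0.0286. The limma fit was first tested on simulated data.

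Depth was estimated from the steps of low values (up to 0.5 FPKM), of which 39.8 to 43.4% at the best depth were whole fragments within 0.05, so fragment counts were not rebuilt. Gene coordinates and promoters are from RefSeq (GRCm38.p6), transcript lengths from GENCODE M21. The genes, lists and alternatives were chosen with earlier results of these data known. Values per spleen are given for genes that passed, for the smallest p and highest mean in each class, and for Hspa1a, Hspa1b, Hsf1 and Hsf2. Stip1, Fkbp5 and Rbm3 were added after their values were seen. Other genes are given by value or count. Ahsp, Pfdn6 and Ciart, which were listed, were not found by name. Python 3.11.15, numpy 2.4.6, pandas 2.3.3 and matplotlib 3.10.9 were used for tables and plots.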

Additional observations from a re-analysis of the deposited data

Results flagged for a closer look

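In 4 of the 78 groups of 4 spleens (39 genes, 2 genotypes), 1 spleen lay far from the other 3 by Dixon's criterion, and chance marks about 1 group in 20. TTPΔARE replicate 3 was high for Hsph1, at 28.4 FPKM against 16.7 to 18.6 FPKM in the other TTPΔARE spleens, and for Chordc1, at 30.1 FPKM against 25.2 to 25.9 FPKM. Wild-type replicate 3 was high for Dnaja4, at 3.21 FPKM against 2.48 to 2.60 FPKM, and low for Cacybp, at 13.1 FPKM against 14.2 to 14.4 FPKM in the other wild-type spleens. Without TTPΔARE replicate 3 Hsph1 had a limma adjusted p of 0.128 while Chordc1 kept its call. Without wild-type replicate 3 Dnaja4 kept its call and Cacybp had an adjusted p of 0.0715 by limma.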

How the results depend on the processing

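No paired analysis was possible because the replicate numbers were given in accession order and tie no spleens together. Leaving out each spleen in turn gave 4 to 13 chaperone genes that rose, 93 to 437 transcripts that rose and 104 to 332 that fell over the whole table. With the erythroid covariate 0 chaperone genes rose, their median log2 value was 0.11, and 0 transcripts rose and 0 fell; the cause was not tested. An adjusted p under 0.1 gave 13 chaperone genes, 726 transcripts higher and 636 lower, and 1 transcript per symbol, which tests fewer features, gave 215 lower. Of the further chaperone genes, 1 was called higher without a filter and 1 at an adjusted p under 0.1, and 1 was called lower with median-of-ratios scaling, sample weights, FPKM summed per symbol and an adjusted p under 0.1; the cause was not tested. Of the 10 genes that rose, 7 kept their call in every processing alternative but the covariate. Signs changed only for genes that did not pass: Hspa9 (-0.0057 with median-of-ratios scaling), Cdc37 (0.0056 with quantile normalization), Hsf1 (-0.0044 with sample weights) and, with the covariate, Hspa4 (-0.037), Hsp90ab1 (-0.076), Hspa9 (-0.080), Hspe1 (-0.020), Bag1 (-0.00051), Tcp1 (-0.017) and Cct8 (-0.019). With 1 spleen left out, log2 values ranged from -0.019 to 0.043 for Hsf1, -0.031 to 0.087 for Dnajb6, -0.047 to 0.035 for Hspa9, -0.044 to 0.017 for Cdc37 and -0.019 to 0.081 for Bag1. Counting error is largest for Hspa1a, Hspa1b and Hspb1 among the genes given per spleen, whose lowest values rest on about 32.9, 42.9 and 22.8 fragments by the estimated depth.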
